A study of Mus musculus with 12 samples.

Results

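The levels of 10 genes of the lysosome and of autophagy were followed through 12 libraries of mouse liver RNA: Tfeb, Lamp1, Lamp2, Ctsb, Ctsd, Ctsl, Lipa, Sqstm1, Map1lc3b and Gabarapl1. They were taken by gene symbol from a table of 54838 genes, and all 10 were among the 14643 genes with enough counts to be tested. The libraries carried the labels DMH, DM and CTL, with 4 libraries each, and the source label of all 12 was liver. According to its title, the series asks how a red Chlamydomonas reinhardtii, a green alga rich in the haem precursor protoporphyrin IX, acts against diabetes in the liver. The labels spell out none of the 3 group names, do not say which animals received the alga, and give no strain, genotype, sex, age, dose or time for any group. Whether the 4 libraries of a label stem from 4 animals is not stated either, and the p-values below therefore measure the spread between libraries, which may be technical. The extraction text speaks of retina while the source label speaks of liver. Alb, the gene of serum albumin, lay between 13487 and 37114 CPM (counts scaled to a common library total), whereas the photoreceptor genes Prph2 and Crx had 0 counts in all 12 libraries and Sag did not exceed 0.447 CPM. Gnat1, the gene of the rod transducin, was at 2.88 to 54.1 CPM in the same libraries.

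Lysosomes are acidic organelles in which cathepsins, glycosidases and lipases break down what endocytosis and autophagy deliver. In macroautophagy a membrane coated with lipid-bound ATG8 proteins grows around cargo that receptors such as SQSTM1 hold, closes, and fuses with a lysosome. TFEB is a transcription factor that mTORC1 keeps out of the nucleus when nutrients are plentiful; it binds E-box sequences in the promoters of many lysosomal and autophagy genes. In liver the pathway turns over mitochondria, glycogen and lipid droplets, and Kupffer cells, the resident macrophages, are themselves rich in lysosomes.

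The letters CACGTG, the E-box that TFEB binds, were looked for in the 250 bases before the start of each gene in RefSeq promoter sequences of GRCm38.p6. This word reads the same on both strands. A promoter was at hand for 9 of the 10 genes, that of Ctsb being the exception, and 3 of the 9 held the word: Lamp1, Ctsd and Ctsl. Among all 27025 genes with a RefSeq promoter, 6.86% held it. Lamp1 held 4 copies, which begin 61, 45, 28 and 15 bases before its start, and 4 or more copies were present in 5 of the 27025 genes. The promoter of Lamp1 (chr8:13158911-13159160, plus strand) is printed whole because of this cluster, with each CACGTG in capitals.
Lamp1: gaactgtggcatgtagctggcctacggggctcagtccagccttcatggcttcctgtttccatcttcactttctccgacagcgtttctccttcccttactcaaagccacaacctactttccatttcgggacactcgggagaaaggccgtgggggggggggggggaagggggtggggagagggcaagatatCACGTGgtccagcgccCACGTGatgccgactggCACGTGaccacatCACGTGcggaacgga
The sites of the other genes are shown as windows of 30 bases, again 5′ to 3′ on the strand of the gene with CACGTG in capitals. Ctsd held 1 copy 245 bases before its start (chr7:142388048-142388077, minus strand) and 1 copy 98 bases before it (chr7:142387908-142387937). Ctsl held 1 copy 236 bases before its start (chr13:64370739-64370768, minus strand). Mcoln1, which is not one of the 10 but is described further on as a lysosomal channel gene that was higher in DMH than in CTL, held copies 71 (chr8:3500436-3500465, plus strand) and 45 bases (chr8:3500462-3500491) before its start. Mcoln1 was chosen for display with this call known. Among the further lysosome and autophagy genes described below, 8 held 2 or more copies, and Mcoln1 was the 1 of these that was called in DMH against CTL.
Ctsd, distal: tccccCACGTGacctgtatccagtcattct
Ctsd, proximal: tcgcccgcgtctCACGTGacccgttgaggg
Ctsl: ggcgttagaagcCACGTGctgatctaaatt
Mcoln1, distal: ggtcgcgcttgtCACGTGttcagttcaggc
Mcoln1, proximal: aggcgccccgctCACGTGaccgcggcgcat
The longer palindrome TCACGTGA, the core of the CLEAR element to which TFEB binds, contains the E-box. It was present in the promoter of 1 of the 9 genes, Ctsd, at its proximal site, and in 0.907% of all 27025 genes. For Ctsd, Ctsl and Mcoln1 the RefSeq start lies inside the gene span given in the deposited table, so the distances hold for the RefSeq start only. For Ctsl all 250 bases lie inside that span, so its site is not upstream of the gene as the deposited table places it. A match of letters is a description of the sequence and does not show that a factor was bound in these livers.

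Library totals ran from 13430122 to 17038017 counts. Genes of the mitochondrial genome took 22.5% to 37.6% of the counts in DMH, 18.7% to 33.7% in DM and 7.88% to 23.5% in CTL. CTL1 and CTL2 had the lowest shares of all libraries, 7.88% and 10.7%. The 12 Kupffer cell markers summed to 140.2 to 504 CPM in DMH, 81.6 to 223 CPM in DM and 423 to 964 CPM in CTL. All 12 had negative log2 fold changes in DM against CTL, with a median of -2.13; edgeR called 0 of them, all 12 had an unadjusted p under 0.05, and DESeq2 called all 12. The median was 0.93 in DMH against DM, where edgeR called 0 and DESeq2 3, and -1.25 in DMH against CTL, where edgeR called 1 and DESeq2 6. The 8 hepatocyte markers summed to 31422 to 46296 CPM in DMH, 39403 to 50166 CPM in DM and 45888 to 66717 CPM in CTL. The 9 neutrophil markers summed to 6.18 to 23.7 CPM in DMH, 5.03 to 11.7 CPM in DM and 17.9 to 339.5 CPM in CTL, with Ly6g at 0 counts in all DMH and DM libraries. The highest sum was that of CTL1 alone, as the other CTL libraries lay between 17.9 and 40.1 CPM. CTL1 was also the highest of the 12 libraries for Ctsb, Ctsd, Ctsl, Lamp1, Lamp2 and Map1lc3b, and the part of the neutrophil markers in these levels was not tested. The 8 markers of monocyte-derived macrophages summed to 12.3 to 57.1 CPM in DMH, 13.6 to 24.8 CPM in DM and 44.7 to 106 CPM in CTL. In pieces of whole tissue, fewer cells of a type and less RNA per cell cannot be told apart.

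Of the 10 genes, 8 were lower in DMH than in CTL: Ctsb, Ctsd, Ctsl, Lamp1, Lamp2, Lipa, Sqstm1 and Gabarapl1. Their log2 fold changes lay between -0.70 and -1.46, and their mean levels in DMH were 36.3% to 61.4% of those in CTL. Map1lc3b did not pass the test, and Tfeb, the transcription factor, had a higher mean in DMH and did not pass either. A gene was called at an edgeR quasi-likelihood p under 0.05 after Benjamini-Hochberg adjustment over all 14643 genes. By this rule 15.4% of all tested genes were called in DMH against CTL, in either direction, and the median log2 fold change of all tested genes was -0.01 against -0.85 for the 10. At an unadjusted p under 0.05, 8 of the 10 were lower, against 17.0% of all genes, and 1, Tfeb, was higher, against 16.0% of all genes. In 7 of the 10, all but Ctsl, Map1lc3b and Tfeb, every DMH library lay below every CTL library, which was so for 10.9% of all genes. None of the 8 calls held without CTL2, and all 8 ended when CTL1 and CTL2 were left out together, when the mitochondrial percentage of each library was added as a covariate (adjusted p 0.401 to 0.791), or when DMH and CTL were fitted without DM (adjusted p 0.0580 to 0.106). All 8 kept a negative sign in each of these fits. The covariate fit ended all other calls of this comparison too. It cannot tell the share from the group, because the mitochondrial share was 22.5% to 37.6% in DMH and 7.88% to 23.5% in CTL. In the same comparison the median log2 fold change was -1.25 over the 12 Kupffer cell markers and -0.54 over the 8 hepatocyte markers, and the part of cell composition in the 8 calls was not tested.

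In DM against CTL and in DMH against DM, edgeR called 0 of the 10. In DM against CTL, 0.219% of all tested genes were called, and all 10 genes had a lower mean in DM, with a median log2 fold change of -0.47. At an unadjusted p under 0.05, 3 of the 10 (Ctsb, Ctsd and Sqstm1) were lower in DM, against 10.4% of all genes, and 0 were higher, against 8.43%. The DM and CTL libraries did not overlap for 2 genes, Ctsb and Ctsd, both lower in DM, as for 7.72% of all genes. In DMH against DM, 0.0341% of all genes were called. At an unadjusted p under 0.05, 3 of the 10 (Lamp2, Lipa and Gabarapl1) were lower in DMH, against 10.3% of all genes, and 1, Tfeb, was higher, against 10.4%. Lipa and Gabarapl1 were lower in every DMH library than in any DM library, as were 7.36% of all genes, and Tfeb was higher in every DMH library, as were 5.67%. The median log2 fold change of the 10 was -0.46 in this comparison. The 3 comparisons share libraries, so their values are set side by side and not combined. DESeq2 called 3.13% of all genes lower and 2.51% higher in DM than in CTL, 2.19% lower and 2.70% higher in DMH than in DM, and 10.4% lower and 10.2% higher in DMH than in CTL. Of the 10 it called the same 8 lower and Tfeb higher in DMH than in CTL. With DESeq2, Ctsb was also called lower in DM than in CTL (adjusted p = 0.0451), while Gabarapl1 was called lower (0.00996) and Tfeb higher (0.0208) in DMH than in DM.

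**Figure D1:**
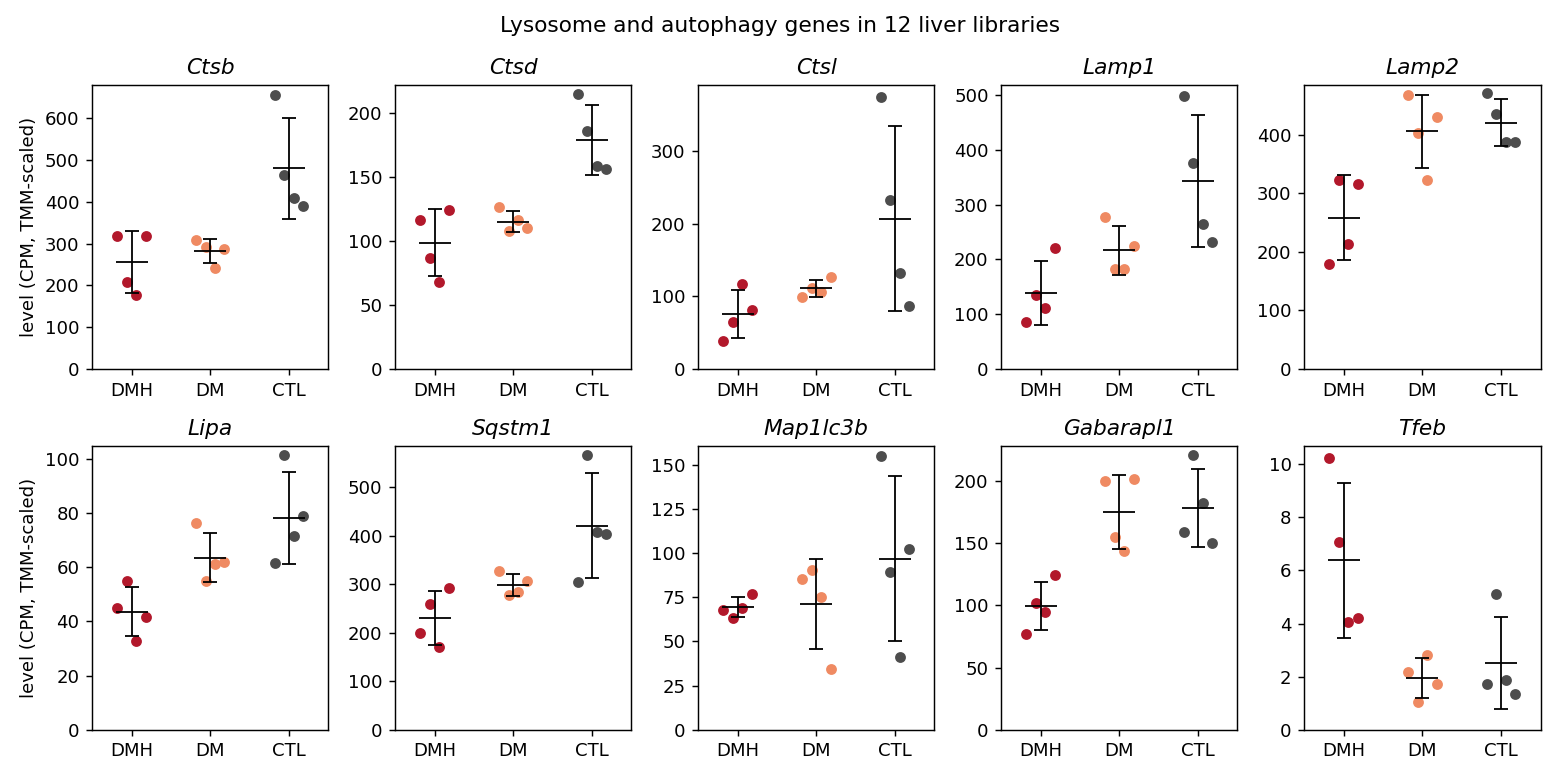
Level of each of the 10 genes (CPM scaled with TMM factors, linear axes from 0) in DMH, DM and CTL. Each point is 1 library, the long bar is the mean and the whiskers are 1 SD over 4 libraries. All but Tfeb have their lowest mean in DMH, and Tfeb has its highest there.

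Tfeb (ENSMUSG00000023990, chr17:47737030-47792419, plus strand), the gene of the regulator, was the least abundant of the 10. DMH1 to DMH4 held 10.2, 7.06, 4.05 and 4.20 CPM, DM1 to DM4 2.16, 1.04, 2.82 and 1.72 CPM, and CTL1 to CTL4 1.72, 5.12, 1.89 and 1.33 CPM. All 4 DMH libraries lay above all 4 DM libraries. CTL2 lay among the DMH libraries, while the other CTL libraries lay within the range of DM. The log2 fold change was 1.71 ± 0.48 (SE, edgeR adjusted p = 0.120) in DMH against DM, 1.33 ± 0.47 (SE, edgeR adjusted p = 0.0693) in DMH against CTL and -0.38 ± 0.47 (SE, edgeR adjusted p = 0.715) in DM against CTL. These levels rest on 13 to 132 counts per library. Without CTL2 the DMH to CTL value was 1.98 and was called (adjusted p = 0.0396). Over all single libraries left out, this value ran from 1.05 to 1.98, with an edgeR adjusted p from 0.0396 to 0.170. Tfeb was not called when CTL1 and CTL2 were left out together. Without CTL2 the sign of the DM to CTL value also turned, to 0.25. For DMH against CTL, DESeq2 called Tfeb at an adjusted p of 0.0307. Of the relatives of Tfeb that bind the same DNA word, Tfec was lower in DMH than in CTL, at -1.31 ± 0.34 (SE, edgeR adjusted p = 0.0276). Tfe3 had a DMH to CTL log2 fold change of -0.23 ± 0.15 (SE, edgeR adjusted p = 0.304) and Mitf one of -0.10 ± 0.48 (SE, edgeR adjusted p = 0.911), neither of them called.

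Lamp1 and Lamp2 encode the heavily glycosylated proteins that line the inner face of the lysosomal membrane; one form of LAMP2 also acts as the receptor of chaperone-mediated autophagy. Lamp1 (ENSMUSG00000031447, chr8:13159161-13175338, plus strand) reached 86.3, 135, 111 and 220.3 CPM in DMH1 to DMH4, 278, 182, 182 and 224 CPM in DM1 to DM4 and 498, 376, 265 and 231 CPM in CTL1 to CTL4. The DMH and CTL libraries did not overlap, DMH4 lay within the range of DM, and CTL1 was the highest library of the 12. The fitted log2 fold change was -1.31 ± 0.31 (SE, edgeR adjusted p = 0.0204) in DMH against CTL, -0.65 ± 0.31 (SE, edgeR adjusted p = 0.258) in DMH against DM and -0.66 ± 0.31 (SE, edgeR adjusted p = 0.269) in DM against CTL. The call ended without CTL2, DMH1 or DMH3, with an adjusted p of at most 0.0607.

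Lamp2 (ENSMUSG00000016534, chrX:38401357-38456454, minus strand) had the same order of group means as Lamp1, but with DM close to CTL. It reached 179.9, 323, 213 and 316 CPM in DMH1 to DMH4, 468, 402, 322 and 431 CPM in DM1 to DM4 and 470.4, 436, 388 and 387 CPM in CTL1 to CTL4. All DMH libraries lay below all CTL libraries, and DMH2 lay just above the lowest DM library, DM3. Its log2 fold change was -0.70 ± 0.21 (SE, edgeR adjusted p = 0.0425) in DMH against CTL, -0.65 ± 0.21 (SE, edgeR adjusted p = 0.143) in DMH against DM and -0.05 ± 0.21 (SE, edgeR adjusted p = 0.927) in DM against CTL. The call held without DMH2 and without DMH4, and it ended when any other single library was left out (CTL1 to CTL4, DM1 to DM4, DMH1 or DMH3), with an adjusted p of up to 0.119.

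Ctsb, Ctsd and Ctsl encode cathepsins, B and L being cysteine proteases and D an aspartic protease of the lysosome. Ctsb (ENSMUSG00000021939, chr14:63122462-63145923, plus strand) was at 317, 209, 177 and 319 CPM in DMH1 to DMH4, 309, 291, 242 and 287 CPM in DM1 to DM4 and 655, 464, 409 and 389 CPM in CTL1 to CTL4. Every DMH and every DM library lay below every CTL library, and DMH and DM overlapped. Its log2 fold change was -0.91 ± 0.23 (SE, edgeR adjusted p = 0.0256) in DMH against CTL, -0.77 ± 0.23 (SE, edgeR adjusted p = 0.121) in DM against CTL and -0.14 ± 0.23 (SE, edgeR adjusted p = 0.765) in DMH against DM. The call in DMH against CTL ended without CTL1, CTL2, DMH2 or DMH3 (adjusted p up to 0.0689).

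Ctsd (ENSMUSG00000007891, chr7:142375911-142388038, minus strand) had the same order, at 116, 86.4, 68.03 and 125 CPM in DMH1 to DMH4, 127, 108, 116 and 110.2 CPM in DM1 to DM4 and 215, 186, 158 and 157 CPM in CTL1 to CTL4. The CTL libraries again stood above all DMH and DM libraries. On the log2 scale the fold change was -0.86 ± 0.20 (SE, edgeR adjusted p = 0.0186) in DMH against CTL, -0.64 ± 0.20 (SE, edgeR adjusted p = 0.123) in DM against CTL and -0.22 ± 0.20 (SE, edgeR adjusted p = 0.546) in DMH against DM. CTL2 was the single library without which the call ended (adjusted p = 0.0534).

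Ctsl (ENSMUSG00000021477, chr13:64359337-64370890, minus strand) varied widely among the CTL libraries. It was at 37.7, 64.5, 117 and 80.8 CPM in DMH1 to DMH4, 99.4, 112, 106 and 127 CPM in DM1 to DM4 and 374, 232, 133 and 86.8 CPM in CTL1 to CTL4. CTL4 lay below DMH3 and below all DM libraries, and CTL1 was 9.90 times as high as DMH1, the lowest of the 12. The log2 fold change was -1.46 ± 0.42 (SE, edgeR adjusted p = 0.0380) in DMH against CTL, -0.89 ± 0.42 (SE, edgeR adjusted p = 0.270) in DM against CTL and -0.57 ± 0.42 (SE, edgeR adjusted p = 0.459) in DMH against DM. The call ended when 1 of 9 libraries was left out (CTL1, CTL2, any DM library, DMH1, DMH2 or DMH4), with an adjusted p of up to 0.111. Without CTL1 and CTL2 the DM to CTL value of Ctsl was 0.03, the sign having turned.

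Lipa (ENSMUSG00000024781, chr19:34492318-34527474, minus strand) encodes lysosomal acid lipase, which frees cholesterol and fatty acids from the lipids delivered to lysosomes. It was at 45.03, 54.8, 32.8 and 41.5 CPM in DMH1 to DMH4, 76.5, 54.8, 61.1 and 61.9 CPM in DM1 to DM4 and 61.5, 102, 71.5 and 78.9 CPM in CTL1 to CTL4. All DMH libraries lay below all others, though DMH2 and DM2 were level to 3 digits, and DM overlapped CTL. For Lipa the log2 fold change was -0.85 ± 0.20 (SE, edgeR adjusted p = 0.0193) in DMH against CTL, -0.55 ± 0.20 (SE, edgeR adjusted p = 0.162) in DMH against DM and -0.30 ± 0.20 (SE, edgeR adjusted p = 0.436) in DM against CTL. CTL2 and DMH3 were the libraries without which the call ended (adjusted p up to 0.0647).

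Sqstm1 (ENSMUSG00000015837, chr11:50199366-50210827, minus strand) encodes p62, a receptor that ties ubiquitinated cargo to ATG8 proteins and is degraded with it. It was at 200.2, 259.9, 169.9 and 292 CPM in DMH1 to DMH4, 327, 278, 284 and 307 CPM in DM1 to DM4 and 304.5, 566, 408 and 404 CPM in CTL1 to CTL4. The DMH libraries lay below all CTL libraries, DMH4 lay among the DM libraries, and CTL1 lay among DM too. The log2 fold change of Sqstm1 was -0.87 ± 0.22 (SE, edgeR adjusted p = 0.0242) in DMH against CTL, -0.49 ± 0.22 (SE, edgeR adjusted p = 0.246) in DM against CTL and -0.37 ± 0.22 (SE, edgeR adjusted p = 0.348) in DMH against DM. The call ended without CTL2, DMH1 or DMH3 (adjusted p up to 0.0795).

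Gabarapl1 and Map1lc3b encode ATG8 proteins of the GABARAP and LC3 branches, which are joined to lipid on the growing autophagosome. Gabarapl1 (ENSMUSG00000030161, chr6:129533160-129542346, plus strand) was at 77.2, 102, 94.9 and 124 CPM in DMH1 to DMH4, 199.9, 155, 144 and 202 CPM in DM1 to DM4 and 159, 221, 182 and 150.3 CPM in CTL1 to CTL4. The DMH libraries lay below all DM and all CTL libraries, and DM and CTL covered much the same range. Its log2 fold change was -0.84 ± 0.19 (SE, edgeR adjusted p = 0.0189) in DMH against CTL, -0.81 ± 0.19 (SE, edgeR adjusted p = 0.114) in DMH against DM and -0.03 ± 0.19 (SE, edgeR adjusted p = 0.960) in DM against CTL. The call in DMH against CTL ended without CTL2, DMH1 or DMH3 (adjusted p up to 0.0644).

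Map1lc3b (ENSMUSG00000031812, chr8:121590361-121598760, plus strand), the LC3B gene, was at 68.1, 63.5, 69.2 and 77.2 CPM in DMH1 to DMH4, 85.4, 90.3, 75.1 and 34.3 CPM in DM1 to DM4 and 155, 89.3, 41.4 and 102 CPM in CTL1 to CTL4. The DMH libraries were close together, whereas DM4 and CTL3 lay far below the other libraries of their groups. For Map1lc3b the log2 fold change was -0.48 ± 0.36 (SE, edgeR adjusted p = 0.379) in DMH against CTL, -0.44 ± 0.36 (SE, edgeR adjusted p = 0.533) in DM against CTL and -0.04 ± 0.36 (SE, edgeR adjusted p = 0.967) in DMH against DM. The DMH to CTL value of Gabarapl1 lies within 2 SE of that of Map1lc3b. Of its sequence words of 25 bases, 8.89% also occur in other genes, and 4.35% in Gm6055 alone.

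**Figure D2:**
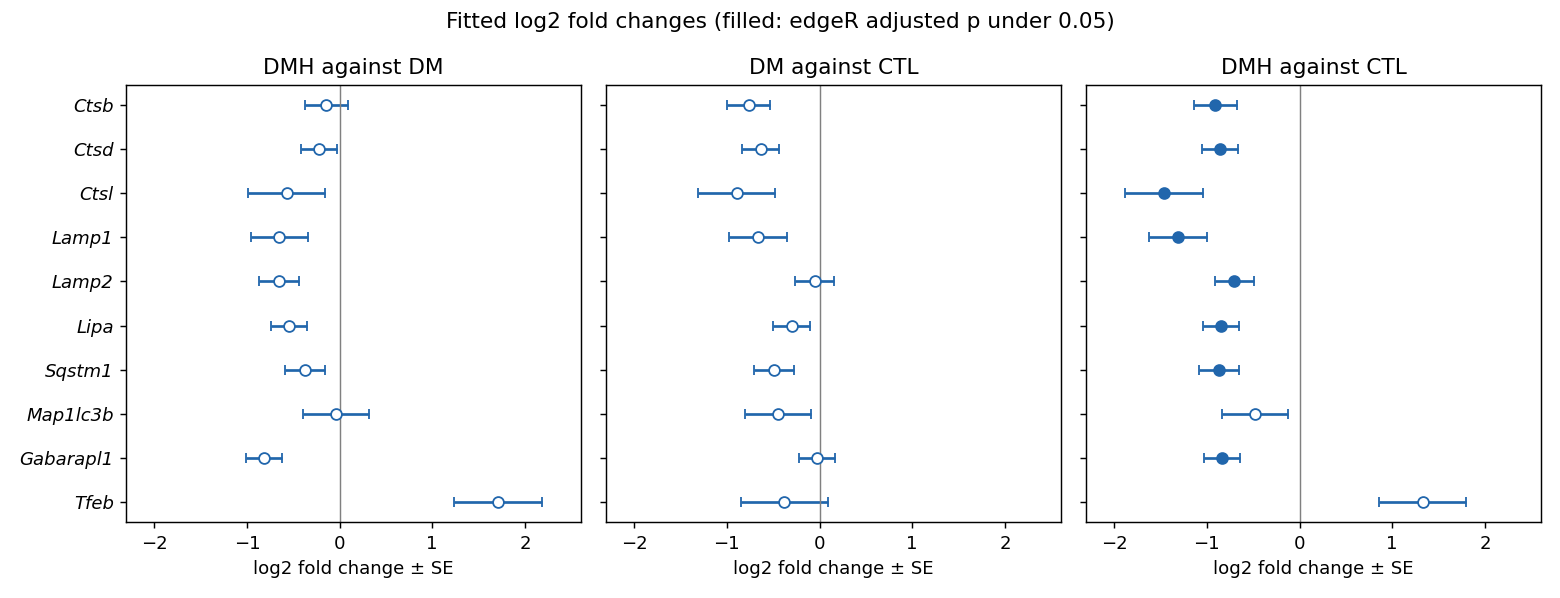
Fitted log2 fold change with its SE for each of the 10 genes in the 3 comparisons, first named group over second. Filled points have an edgeR adjusted p under 0.05. The filled points are the 8 genes at -0.70 to -1.46 in DMH against CTL.

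Some of these counts could hold reads of a neighbour, since the strand setting of the counting is not given in the sources used here. Ctsb shares 774 of its 6051 exonic bases with Fdft1 on the other strand, which averaged 45.9 CPM of the plain library total against 345 CPM for Ctsb. Lamp1 shares 249 bases with Grtp1 (15.1 CPM against 240.3 CPM for Lamp1), and Sqstm1 shares 580 with Mrnip (3.05 CPM against 327 CPM for Sqstm1). Map1lc3b shares 58 bases with Zcchc14 (28.8 CPM against 80.0 CPM for Map1lc3b). Ctsd overlaps the annotated gene Gm49369 on the same strand, which holds 33.4% of its words of 25 bases and averaged 0.470 CPM. The partners of Ctsl and Gabarapl1 averaged at most 0.246 CPM, and Lamp2, Lipa and Tfeb share no exonic base with another gene.

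The order of the 10 genes by level per length was similar in the 3 groups. In the deposited FPKM values Lamp1 stood first, at 47.9 ± 24.2 FPKM in DMH, 75.4 ± 21.3 FPKM in DM and 129.96 ± 47.2 FPKM in CTL (SD, n = 4 each). Ctsb, Sqstm1, Gabarapl1, Lamp2 and Ctsd held ranks 2 to 6 in every group, with Gabarapl1 second in DM and Ctsb second in DMH and CTL. Lipa was at 13.5 ± 2.13 FPKM in DMH, 20.6 ± 5.46 FPKM in DM and 27.8 ± 8.93 FPKM in CTL, followed in each group by Ctsl and then Map1lc3b. Tfeb was last at 0.640 ± 0.210 FPKM in DMH, 0.219 ± 0.120 FPKM in DM and 0.309 ± 0.252 FPKM in CTL. Neighbours in this order overlapped in their library ranges, except Map1lc3b and Tfeb in all 3 groups and Ctsl and Map1lc3b in DM. The order holds only for the gene lengths that the FPKM values imply. These were 7013 bases for Sqstm1 and 3074 for Lipa, whereas GENCODE M21 gives 3356 and 6780 exonic bases.

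The genes were also compared library by library. Centred on its mean log2 CPM, Ctsb differed from Ctsd by 0.0859 on average over the 12 libraries, the closest pair, followed by Lipa and Sqstm1 at 0.131 and Lamp2 and Gabarapl1 at 0.159. The mean centred log2 level of the 9 genes without Tfeb was -0.66, -0.41, -0.63 and -0.14 in DMH1 to DMH4, 0.20, -0.02, -0.10 and -0.03 in DM1 to DM4, and 0.73, 0.66, 0.18 and 0.21 in CTL1 to CTL4. CTL1 and CTL2 stood above the other CTL libraries, and they were also the libraries with the lowest mitochondrial share and the highest sums of Kupffer cell markers. DMH4 stood closest to DM; its mitochondrial share, 22.5%, was the lowest of DMH. The part of mitochondrial share or of cell type in these values was not tested. The covariate fit given above cannot tell the share from the group, since the shares of DMH and CTL overlap only between 22.5% and 23.5%. The nearest gene to each member over the 12 libraries was sought among all other tested genes with an SD of at least that of the member over 1.5. The nearest was Zcchc17 for Ctsb (mean absolute difference 0.120 log2 units), Atp1b3 for Ctsd (0.0951), Gm9755 for Lamp1 (0.103), Golph3 for Lamp2 (0.0955) and Bcap31 for Gabarapl1 (0.0995). It was Hadha for Lipa (0.133), Arhgap35 for Sqstm1 (0.124), H3f3a-ps2 for Ctsl (0.245), Ino80b for Map1lc3b (0.243) and Ushbp1 for Tfeb (0.380). Ctsb and Ctsd lay closer to each other than to the genes named for them, and Lipa lay closer to Sqstm1 than to Hadha.

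**Figure D3:**
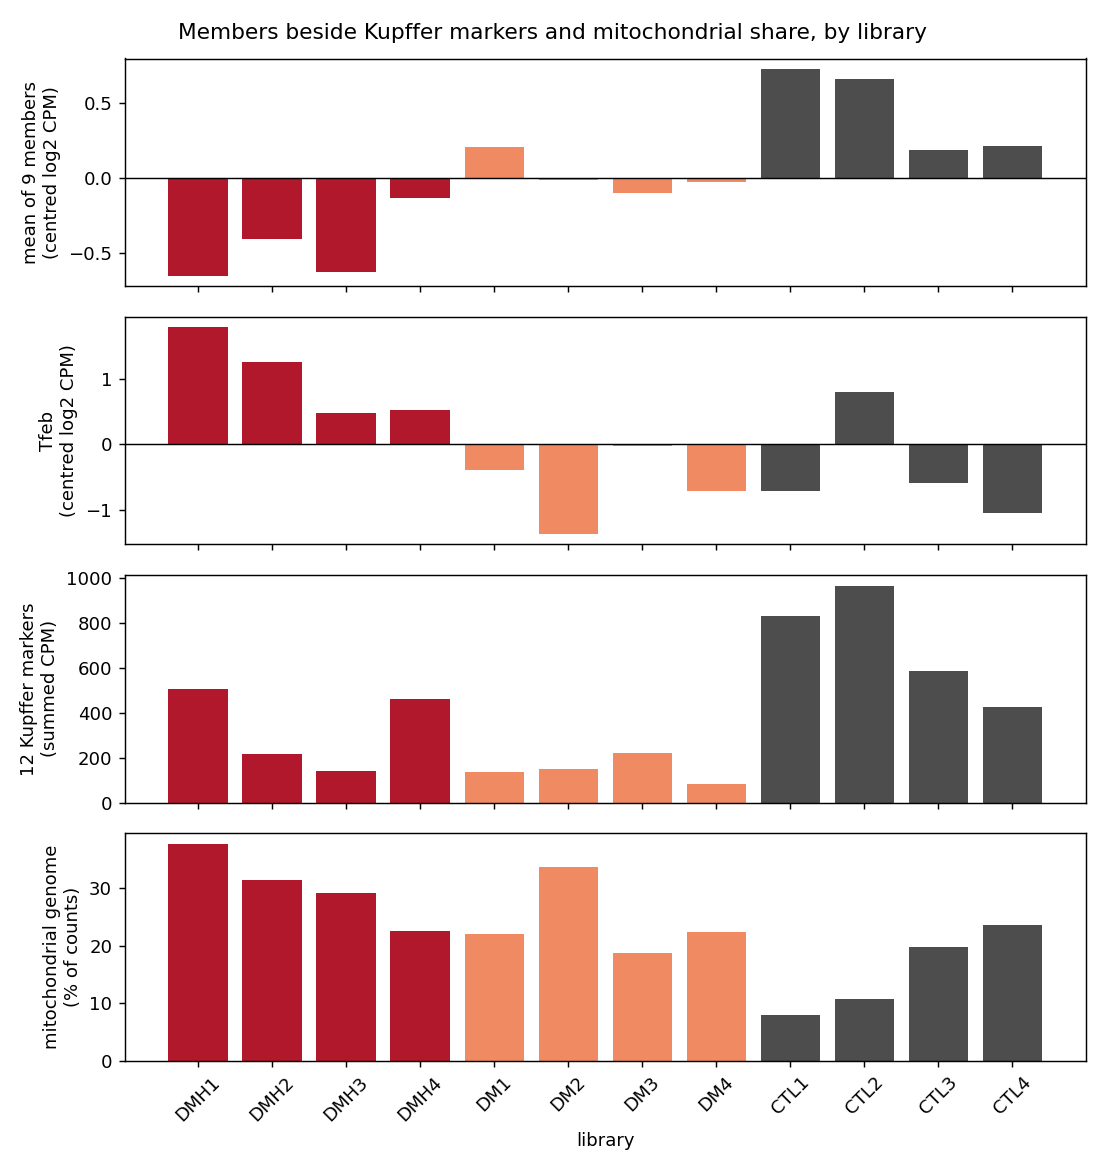
From top to bottom, for each library in the order DMH, DM, CTL: the mean centred log2 CPM of the 9 genes without Tfeb, the centred log2 CPM of Tfeb, the summed CPM of 12 Kupffer cell markers, and the percentage of counts from the mitochondrial genome. CTL1 and CTL2 have the highest bars for the 9 genes and for the Kupffer cell markers and the lowest for the mitochondrial genome.

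A set of 11 lists of lysosome and autophagy genes held the rest of the pathway, with 176 further genes, of which 172 were tested. In DMH against CTL edgeR called 12 of these higher and 31 lower. The share called higher, 6.98%, was close to the 7.25% of all genes, and the share called lower was 18.02%, against 8.15% of all genes. The median log2 fold change of the 172 was -0.10. In DM against CTL and in DMH against DM edgeR called 0 of the 172, while DESeq2 called 9 lower and 5 higher in DM than in CTL, and 6 lower and 5 higher in DMH than in DM. The DESeq2 shares were 5.26% lower and 2.92% higher in DM than in CTL and 3.51% lower and 2.92% higher in DMH than in DM, to be read against the DESeq2 shares of all genes given above. At an unadjusted p under 0.05, 28 were lower and 10 higher in DM against CTL, and 25 were lower and 24 higher in DMH against DM. These were 16.3% lower and 5.81% higher in DM against CTL, where all genes had 10.4% and 8.43%, and 14.5% lower and 14.0% higher in DMH against DM, where all genes had 10.3% and 10.4%. The calls in DMH against CTL depended on single libraries: of the 43 called genes, 7 were still called without CTL2, 14 without DMH3, 17 without DMH2, 19 without DMH1, 21 without CTL1, 24 without CTL3, and 31 to 41 when 1 of the others was left out. With the mitochondrial percentage as a covariate, or without CTL1 and CTL2, 0 of the 43 were called. Of the 43, 10 were called with DMH and CTL fitted alone, 11 at a fold of 2 with unadjusted p, 13 in each limma fit of FPKM, 20 with the replicate block, 25 with no filter and 43 with DESeq2. Npc2, Scarb2, Laptm4a, Mcoln1, Slc38a9 and Atp6v1e1 stayed called whichever single library was left out, with adjusted p of at most 0.0488.

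Below, values in brackets are DMH to CTL log2 fold changes ± SE with the edgeR p adjusted over all genes. Of 15 tested lysosomal proteases, 33.3% were called in DMH against CTL, against 15.4% of all genes, with Ctsb, Ctsd and Ctsl counted in. By edgeR 5 were lower and 0 higher: the 3 cathepsins above, cathepsin Z (Ctsz, -0.84 ± 0.19, adjusted p = 0.0190) and cathepsin H (Ctsh, -1.27 ± 0.39, adjusted p = 0.0468). Outside the 3 cathepsins above, Ctsz and Ctsh were the only proteases called, so the share rests largely on calls already given. Ctsz was at 198, 174, 104 and 178 CPM in DMH1 to DMH4, 179, 134, 158 and 154 CPM in DM1 to DM4 and 294, 303, 308 and 259.8 CPM in CTL1 to CTL4, so CTL stood above both other groups. In DM against CTL its log2 fold change was -0.90 ± 0.19 (adjusted p = 0.0633) and that of cathepsin C (Ctsc) was -1.59 ± 0.40 (adjusted p = 0.0931), neither of them called by edgeR. DESeq2 called both lower in DM than in CTL, with adjusted p of 0.00138 for Ctsz and 0.00635 for Ctsc. It called 6 of the proteases (40%) lower and 0 higher in DM than in CTL, against 3.13% and 2.51% of all genes. In DMH against CTL it called 7 (46.7%) lower and 1 (6.67%), Ctsf, higher (adjusted p = 0.0463), against 10.4% and 10.2% of all genes. Of 23 glycosidases and sulfatases 8.70% were called, a share below that of all genes. Arsb (-0.75 ± 0.17, adjusted p = 0.0190) and Fuca1 (-0.64 ± 0.17, adjusted p = 0.0300) were called lower and 0 higher by edgeR. DESeq2 called 3 (13.6%) lower and 0 higher in DMH than in CTL, against 10.4% and 10.2% of all genes. The Kupffer cell markers had a median log2 fold change of -2.13 in DM against CTL, and their part in the values of Ctsz and Ctsc was not tested.

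Genes of lysosomal lipid handling were called in both directions in DMH against CTL. Npc2, a soluble protein that hands cholesterol to the membrane protein NPC1, was at 14.9, 18.9, 16.1 and 23.4 CPM in DMH1 to DMH4, 21.7, 21.3, 22.3 and 18.6 CPM in DM1 to DM4 and 97.4, 53.6, 36.8 and 32.7 CPM in CTL1 to CTL4. All DMH and DM libraries lay below all CTL libraries, and the log2 fold change was -1.59 ± 0.30 (SE, edgeR adjusted p = 0.0120) in DMH against CTL and -1.39 ± 0.30 (SE, edgeR adjusted p = 0.0631) in DM against CTL, the second of these being called by DESeq2 alone (adjusted p = 0.00236). Npc1 itself was at 131, 167, 151 and 114 CPM in DMH1 to DMH4, 79.4, 96.7, 103 and 117 CPM in DM1 to DM4 and 92.97, 76.03, 83.2 and 91.6 CPM in CTL1 to CTL4. Every DMH library lay above every CTL library, and DMH4 lay within the range of DM, with a DMH to CTL log2 fold change of 0.71 ± 0.17 (SE, edgeR adjusted p = 0.0194). Of 11 tested genes of this list 4 were called lower in DMH than in CTL, Lipa and Npc2 being joined by the sphingolipid activator genes Gm2a (-0.74 ± 0.18, adjusted p = 0.0217) and Psap (-0.90 ± 0.24, adjusted p = 0.0277), and Npc1 was the 1 called higher. That was 36.4% lower and 9.09% higher, against 8.15% and 7.25% of all genes, with Lipa counted in.

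Genes of lysosomal membrane proteins changed in both directions in DMH against CTL, with 6 called lower and 4 higher among 20. These shares were 30% lower and 20% higher, against 8.15% and 7.25% of all genes, and Lamp1 and Lamp2 are among the 6. Scarb2, the gene of LIMP-2, the carrier of glucocerebrosidase, was at 23.9, 28.03, 33.5 and 41.6 CPM in DMH1 to DMH4, 62.6, 41.5, 63.1 and 46.6 CPM in DM1 to DM4 and 105, 99.97, 61.98 and 52.7 CPM in CTL1 to CTL4, with a DMH to CTL log2 fold change of -1.33 ± 0.26 (SE, edgeR adjusted p = 0.0124). All DMH libraries lay below all CTL libraries, and DMH4 was level with DM2, the lowest of DM. Laptm4a (-0.72 ± 0.14, adjusted p = 0.0120), Laptm4b (-0.93 ± 0.26, adjusted p = 0.0338) and Tmem192 (-0.91 ± 0.28, adjusted p = 0.0470) were lower with Lamp1 and Lamp2. In the other direction, Mcoln1, the gene of the calcium channel TRPML1 whose promoter sites are shown above, was at 46.9, 33.8, 70.9 and 45.7 CPM in DMH1 to DMH4, 25.9, 26.9, 25.7 and 29.2 CPM in DM1 to DM4 and 22.6, 20.7, 27.3 and 26.03 CPM in CTL1 to CTL4. Every DMH library stood above all DM and CTL libraries. Its log2 fold change was 1.03 ± 0.20 (SE, edgeR adjusted p = 0.0124) in DMH against CTL and 0.87 ± 0.20 (SE, edgeR adjusted p = 0.112) in DMH against DM, where DESeq2 called it (adjusted p = 0.0106). Slc38a9, an arginine sensor of mTORC1 on the lysosome, had 0.93 ± 0.16 (adjusted p = 0.0112) in DMH against CTL, the chloride transporter gene Clcn7 0.73 ± 0.18 (adjusted p = 0.0207), and Mfsd8 1.05 ± 0.25 (adjusted p = 0.0207).

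The proton pump that acidifies the lysosome had 5 of 17 subunit genes called lower in DMH than in CTL and 0 higher. The share called lower was 29.4%, against 8.15% of all genes, while 7.25% of all genes were called higher. Atp6v1e1 was at 19.6, 30.7, 31.6 and 38.6 CPM in DMH1 to DMH4, 54.6, 41.3, 36.1 and 43.8 CPM in DM1 to DM4 and 74.3, 73.2, 58.03 and 47.4 CPM in CTL1 to CTL4, with a log2 fold change of -1.07 ± 0.22 (SE, edgeR adjusted p = 0.0144). Atp6ap1 (-1.23 ± 0.36, adjusted p = 0.0395), Atp6v0e (-0.83 ± 0.21, adjusted p = 0.0257), Atp6v1f (-0.68 ± 0.17, adjusted p = 0.0227) and Atp6v1a (-0.54 ± 0.13, adjusted p = 0.0230) made up the rest. The pump has alternative subunits, and Tcirg1, one form of the large membrane subunit, had a DMH to DM log2 fold change of 0.96 ± 0.26 (SE, edgeR adjusted p = 0.115), not called by edgeR but called by DESeq2 (adjusted p = 0.0232). None of the 6 tested genes that sort enzymes to the lysosome was called in any comparison by edgeR. At an unadjusted p under 0.05, 1 was lower and 2 were higher in DMH than in CTL, against 17.0% and 16.0% of all genes. In the other comparisons 0 differed at that p, and DESeq2 called 1 (16.7%) lower in DMH than in CTL, against 10.4% of all genes. The mannose 6-phosphate receptor gene M6pr was the one with the smallest p, at -1.14 ± 0.41 (SE, edgeR adjusted p = 0.0764).

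On the autophagy side, 4 of the 5 ATG8 genes were called lower in DMH than in CTL and 0 higher, by edgeR: Gabarapl1, Gabarap (-0.97 ± 0.26, adjusted p = 0.0282), Gabarapl2 (-0.67 ± 0.18, adjusted p = 0.0290) and Map1lc3a (-0.97 ± 0.26, adjusted p = 0.0306). The share called lower was 80%, against 8.15% of all genes, and the 5 include Gabarapl1 and Map1lc3b. Gabarapl2 was at 12.2, 16.6, 12.3 and 17.98 CPM in DMH1 to DMH4, 25.7, 23.7, 20.2 and 27.1 CPM in DM1 to DM4 and 20.8, 28.9, 22.1 and 22.3 CPM in CTL1 to CTL4, so that DMH stood below both other groups, as for Gabarapl1. Its DMH to DM log2 fold change was -0.71 ± 0.18 (adjusted p = 0.115), which edgeR did not call and DESeq2 did (adjusted p = 0.0205). Of 18 tested receptors, Sqstm1, Stbd1 (-0.79 ± 0.19, adjusted p = 0.0207), Bnip3l (-0.68 ± 0.20, adjusted p = 0.0370) and Tollip (-0.45 ± 0.13, adjusted p = 0.0390) were called lower and 0 higher by edgeR. With Sqstm1 counted in, 22.2% of the receptors were called lower, against 8.15% of all genes. DESeq2 called 5 (27.8%) lower and 1 (5.56%), Nbr1, higher (adjusted p = 0.0424), against 10.4% and 10.2% of all genes. Stbd1 binds glycogen and BNIP3L, also called NIX, marks mitochondria for removal.

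The 27 tested genes that build the autophagosome had 2 called in each direction in DMH against CTL by edgeR. That was 14.8% in all, which is near the 15.4% of all genes. DESeq2 called 3 (11.1%) in each direction, near the 10.4% lower and 10.2% higher of all genes. Atg5 (-0.53 ± 0.16, adjusted p = 0.0403) and Atg12 (-0.62 ± 0.19, adjusted p = 0.0445), whose products are joined to each other in the complex that attaches ATG8 proteins to lipid, were lower. Ambra1 (0.73 ± 0.17, adjusted p = 0.0198), a partner of Beclin 1, and Wipi1 (0.82 ± 0.21, adjusted p = 0.0242), which reads the lipid signal of the early autophagosome, were higher. Atg3, the enzyme that transfers ATG8 proteins to lipid, was at 43.3, 53.8, 55.99 and 51.1 CPM in DMH1 to DMH4, 75.2, 82.9, 65.98 and 76.99 CPM in DM1 to DM4 and 44.7, 50.2, 51.7 and 59.5 CPM in CTL1 to CTL4. DM stood above both other groups, with log2 fold changes of 0.55 ± 0.14 (adjusted p = 0.0991) in DM against CTL and -0.56 ± 0.14 (adjusted p = 0.115) in DMH against DM, neither of them called by edgeR. DESeq2 called both, with adjusted p of 0.0103 in DM against CTL and 0.0139 in DMH against DM.

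Of 27 tested genes of the TFEB family and of mTORC1 control, 3 were called higher and 4 lower in DMH than in CTL. These were 11.1% higher and 14.8% lower, against 7.25% and 8.15% of all genes. Fnip1 (0.90 ± 0.23, adjusted p = 0.0242) and Fnip2 (1.28 ± 0.28, adjusted p = 0.0170), partners of folliculin in the control of TFEB, and Tsc1 (1.25 ± 0.36, adjusted p = 0.0376), a brake on mTORC1, were higher by edgeR. Lamtor1 (-1.01 ± 0.21, adjusted p = 0.0149) and Lamtor5 (-0.65 ± 0.20, adjusted p = 0.0483), parts of the Ragulator scaffold that holds mTORC1 at the lysosome, were lower, with the transcription factor genes Foxo1 (-0.81 ± 0.25, adjusted p = 0.0475) and Tfec. Lamtor1 was at 11.6, 14.7, 11.02 and 19.8 CPM in DMH1 to DMH4, 24.9, 16.4, 20.4 and 17.6 CPM in DM1 to DM4 and 29.4, 34.7, 25.6 and 25.2 CPM in CTL1 to CTL4. Fnip2 was at 28.6, 26.1, 37.8 and 15.4 CPM in DMH1 to DMH4, 22.8, 19.5, 35.01 and 22.8 CPM in DM1 to DM4 and 13.8, 7.80, 12.8 and 10.03 CPM in CTL1 to CTL4, with CTL below both other groups. Of 13 tested genes of autophagosome to lysosome fusion, the SNARE genes Vamp8 (-0.97 ± 0.23, adjusted p = 0.0209) and Snap29 (-0.68 ± 0.18, adjusted p = 0.0304) and Rab7 (-0.45 ± 0.13, adjusted p = 0.0425), a GTPase of late endosomes, were called lower. Rilp (0.63 ± 0.18, adjusted p = 0.0386), an effector of RAB7, and Rubcn (0.49 ± 0.15, adjusted p = 0.0433), an inhibitor of autophagosome maturation, were called higher. Among the fusion genes 23.1% were called lower and 15.4% higher, against 8.15% and 7.25% of all genes.

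**Figure D4:**
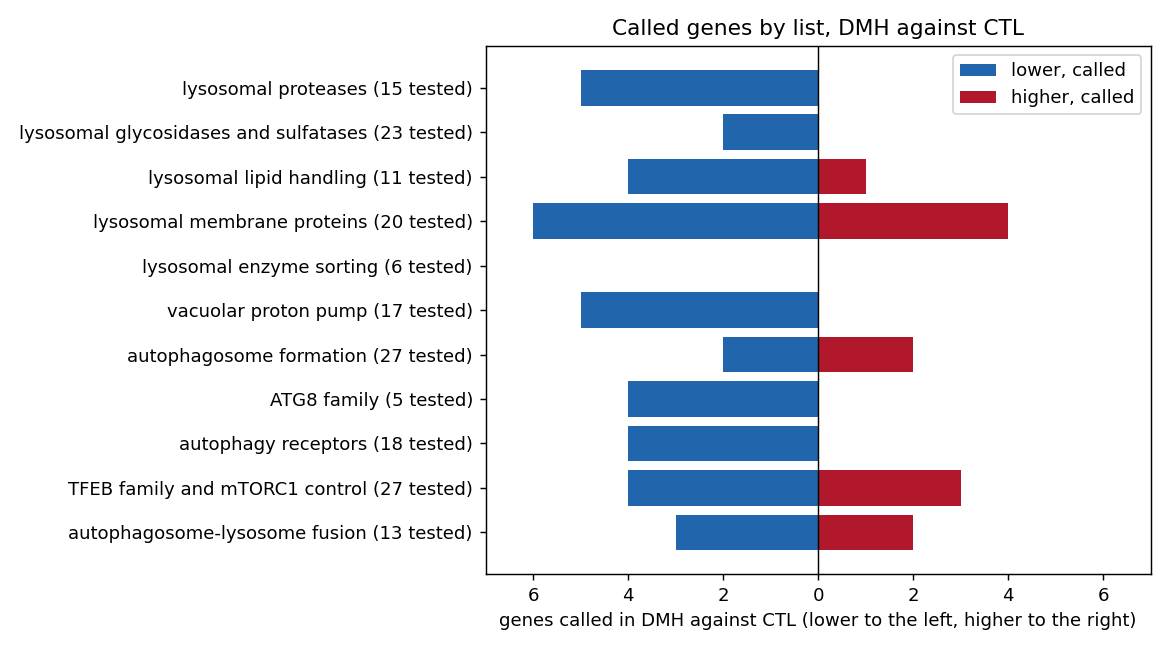
Number of genes of each list called lower (left) or higher (right) in DMH than in CTL at an edgeR adjusted p under 0.05, with the number tested beside the name; the 10 genes are counted in their lists. The membrane proteins have 6 lower and 4 higher, and the ATG8 family has 4 of 5 lower. Over all tested genes, 8.15% were called lower and 7.25% higher.

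The E-box was counted in the promoters of these further genes too. It was present in 32 of the 146 with a promoter (21.9%), in 4 of the 11 called higher in DMH than in CTL and in 3 of the 26 called lower. The genes with it among those called higher were Mcoln1, Clcn7, Fnip1 and Rubcn, and among those called lower Lamtor1, Atg5 and Atp6v1a. TCACGTGA was present in 12 of the 146 (8.22%). These shares were not compared by a test, and no measure of TFEB binding or location was part of the data used here.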

How the data were processed

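Total RNA of 12 mouse liver libraries was sequenced, 4 each for the labels DMH, DM and CTL. Per the series' design text, the authors checked reads with FastQC 0.11.8, trimmed them with Trimmomatic 0.36, aligned them to GRCm38 with HISAT2 2.1.0 and took a count per gene with StringTie. For the annotation release and the strand setting, nothing is stated in the sources used here. The deposited FPKM values were made by the authors beside these counts and equal the count over 1 fixed length per gene and the plain library total, although the design text names TMM. The submitters' processing notes also list DESeq2, without a role.

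Counts were tested here with edgeR 4.0.16 in R 4.3.3 (quasi-likelihood F test, robust, TMM factors, minimum count 10 and minimum total 15, 12 libraries in 1 model, 9 residual degrees of freedom) and adjusted by Benjamini-Hochberg over 14643 genes. Levels are CPM with TMM factors. The exceptions are Alb, the retina genes, the cell marker sums and the overlapping or word-sharing genes, which use the plain library total. The SE of a log2 fold change was derived from the test, as its absolute value over the square root of F. The script was tested on simulated data. Alternatives used DESeq2 1.42.0, limma 3.58.1 on FPKM, other filters and scalings, a replicate block, a mitochondrial covariate and left-out libraries. No library was a copy of another: chi-square over degrees of freedom was 39.5 to 432 for pairs within a group. The 10 genes and all lists were chosen with earlier results of these data known. All 10 genes were named; of the pathway lists, called genes were named, and otherwise up to 2 with the smallest p. The most alike gene was sought outside the 10, among tested genes with an SD of at least that of the member over 1.5. It had the smallest mean absolute difference in centred log2 CPM (prior count 2). Outside this rule, Tfe3 and Mitf were named as the family of Tfeb, and Ctsf and Nbr1, after their values were seen, as single calls of DESeq2. Exonic overlaps and words of 25 bases were taken from GENCODE M21, in which all 10 genes have the span of the deposited table.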

Additional observations from a re-analysis of the deposited data

Results flagged for a closer look

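In the CTL group, Tfeb stood at 5.12 CPM in CTL2, against 1.33 to 1.89 CPM in the other 3 CTL libraries, so that 1 library lay far from the others. Sets of 4 libraries were examined for each of the 10 genes in each of the 3 groups, 30 in all, and this was the 1 set past the critical value; chance alone flags about 1 in 20 such sets. Without CTL2 the log2 fold change of Tfeb was 1.98 in DMH against CTL (edgeR adjusted p = 0.0396) and 0.25 in DM against CTL. Over all single libraries left out, the edgeR adjusted p in DMH against CTL reached 0.170.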

How the results depend on the processing

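In DMH against CTL, 8 of the 10 genes were called, 6 to 9 with RLE size factors, a minimum count of 50, no filter, the mitochondrial genes left out, log2(FPKM + 1), or DESeq2. The number was 4 with limma on log2(FPKM + 0.1), 3 with a fold of 2 and unadjusted p, 0 with the 2 groups alone, 0 with the mitochondrial covariate, 0 without CTL1 and CTL2 (chosen after seeing the data, as was leaving out the mitochondrial genes), and 1 to 7 with 1 library left out. In DMH against DM, DESeq2 called 2 and the fold rule 1; in DM against CTL, DESeq2 called 1. Over all genes, the count in DM against CTL was 32 and became 870 (DESeq2), 65 (no filter), 77 (log2(FPKM + 1)), 56 (log2(FPKM + 0.1)), 367 (2 groups alone), 3 (mitochondrial covariate), 1154 (fold rule), 9 (without CTL1 and CTL2) and 7 to 248 (1 library left out). In DMH against DM it was 5 and became 677 (DESeq2), 12 (minimum count 50), 2 (mitochondrial covariate), 749 (fold rule) and 1 to 155 (1 library left out). In DMH against CTL it was 2255 and became 1005 and 880 (FPKM with 1 and 0.1 added), 629 (2 groups alone), 0 (mitochondrial covariate), 5 (without CTL1 and CTL2) and 623 to 2967 (1 library left out). The causes were not tested. Higher and lower calls in DMH against CTL were 1062 and 1193, but 264 and 741 with log2(FPKM + 1), 235 and 645 with log2(FPKM + 0.1), where the median of all genes was -0.14, and 395 and 234 with 2 groups alone. In DM against CTL they were 22 and 10, but 14 and 63, and 16 and 40 (median -0.13), in the FPKM fits.

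Some signs turned, and not only for values near 0. In the main fit of DM against CTL, Ctsl was at -0.89 and Tfeb at -0.38. In DM against CTL the mitochondrial covariate gave 0.12 for Lamp2 and 0.16 for Gabarapl1, and leaving out CTL1 and CTL2 gave 0.0297 for Ctsl, 0.0769 for Lamp2, 0.0856 for Gabarapl1 and 0.28 for Tfeb. With 1 library left out, the values ran from -0.11 to 0.0576 for Lamp2, from -0.10 to 0.11 for Gabarapl1 and from -0.61 to 0.25 for Tfeb. In DMH against DM, Map1lc3b turned to 0.0249 with a minimum count of 50, 0.0148 and 0.0287 with 1 and 0.1 added to FPKM, and 0.0333 with the covariate; with 1 library left out it ran from -0.27 to 0.13, and Ctsb from -0.25 to 0.0130.

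Replicate numbers did not pair the libraries: same-numbered libraries correlated in their deviations from the group means at -0.129 to 0.112, other numbers at -0.143 to 0.131. With the replicate number as a block, 1 gene was called in DM against CTL, 1 in DMH against DM and 1001 in DMH against CTL, 6 of the 10 were called in DMH against CTL (not Ctsl, adjusted p = 0.109, or Lamp2, 0.0672), and Map1lc3b was at 0.00870 in DMH against DM. Depth limits Tfeb most, at 13 to 132 counts per library.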

Other observations

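Markers of other liver cell types gave these sums. The 7 sinusoidal endothelium markers summed to 131 to 221 CPM in DMH, 106 to 174 CPM in DM and 142 to 248 CPM in CTL. The 7 stellate cell markers summed to 76.0 to 184 CPM in DMH, 75.9 to 145 CPM in DM and 63.7 to 196 CPM in CTL, and the 5 cholangiocyte markers to 50.9 to 107 CPM in DMH, 50.7 to 91.2 CPM in DM and 34.0 to 82.1 CPM in CTL. B and plasma cell markers summed to 23.9 to 37.4 CPM in DMH, 12.4 to 72.4 CPM in DM and 149 to 235 CPM in CTL, so that CTL stood above both other groups. T and NK cell markers summed to 1.38 to 6.19 CPM in DMH, 2.17 to 3.53 CPM in DM and 3.99 to 5.94 CPM in CTL.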
